A study of Mus musculus with 12 samples.

Results

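Retinoic acid is made and destroyed inside the embryo, and 10 genes of this system were examined: the synthesis enzymes Aldh1a1, Aldh1a2 and Aldh1a3, the breakdown enzymes Cyp26a1, Cyp26b1 and Cyp26c1, the receptors Rara, Rarb and Rarg, and the carrier Crabp1. They were chosen by name, with earlier results of these data known. The detection p of a probe is the share of negative control probes with a signal at least as high. Every probe listed for the 10 genes was taken if its detection p was under 0.05 on at least 4 of 12 arrays. The platform annotation listed 10 probes for 6 of the 10 genes, and 8 of these probes, covering all 6 genes, passed that filter, of 13876 passing probes in all. That is 6 of 7341 named genes with a passing probe. The annotation used here lists no probe for Rara, Rarb, Rarg or Cyp26c1, so the receptors were not analysed here and the results concern the enzymes and Crabp1. A further probe of Aldh1a3 (ILMN_1235590) and another of Cyp26a1 (ILMN_2691295) were detected on 0 of 12 arrays.

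RNA from NOD mouse embryos, taken whole at embryonic day 10.5, was measured on 12 Illumina BeadChip arrays, 1 per sample. NOD is an inbred strain prone to autoimmune diabetes, and all 3 groups share it. The NTD group comprised 4 single embryos from diabetic pregnancies, each with a neural tube defect, the diabetic group 4 pools of RNA from 4 embryos each from diabetic pregnancies, and the control group 4 pools of the same size from normal pregnancies. Dams counted as diabetic had blood glucose above 250 mg/dL and were injected with 5 units of gonadotropin to bring on estrus. Whether the control dams were injected too is not stated in the labels, nor whether any embryo in a diabetic pool had a defect. Being measured alone and having a defect cannot be told apart, because every NTD sample was 1 embryo and every other sample a pool.

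Retinoic acid is a vitamin A derivative that diffuses between cells and switches genes on through nuclear receptors. Aldehyde dehydrogenases of the ALDH1A family make it from retinaldehyde, and cytochromes of the CYP26 family oxidise it for removal, so that sources and sinks give each region of the embryo its own level. In mice, loss of Aldh1a2 stops development at midgestation, and loss of Cyp26a1 truncates the tail end and leaves the caudal neural tube open. Receptors bind DNA at paired half-sites, and an element with 2 half-sites in the same direction, 5 bases apart, is the best known of these.

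The promoters of Cyp26a1 and Rarb are shown because each holds such an element before its start, the feature by which both genes are known to respond to retinoic acid. RefSeq promoters (GRCm38.p6) were found for 9 of the 10 genes, 14 promoters in all, Aldh1a3 being the exception. In the 250 bases before each start, both strands were searched for 2 half-sites (AGGTCA, the variant AGTTCA, the variant GGGTCA or the variant GGTTCA) in the same direction with 1, 2 or 5 bases between them. Matches were found in 2 of the 14 promoters, both with 5 bases between. Of 32851 promoters in the table, 0.0883% hold that spacing, 0.164% the spacing of 1 base and 0.174% the spacing of 2. The Cyp26a1 stretch is chr19:37697754-37697807, plus strand, and its element lies 32 to 16 bases before the start and reads as AGTTCA followed by another AGTTCA on the opposite strand. The Rarb stretch is chr14:16575491-16575551, minus strand, and its element lies 53 to 37 bases before the start with the half-site GGTTCA followed by AGTTCA. Both stretches lie within the RefSeq bounds of their gene, before the start that the promoter table gives. Capitals mark the element.
Cyp26a1: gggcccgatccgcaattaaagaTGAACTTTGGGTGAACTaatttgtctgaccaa
Rarb: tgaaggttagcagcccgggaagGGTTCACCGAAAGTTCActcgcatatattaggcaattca
A match describes these letters, and no binding was measured here. Of the 26 other genes whose promoters hold an element with 5 bases between the half-sites, 3 had a passing probe (Hbb-y, Blvrb and Cfap45). In limma's test 0 of these 3 passed in any comparison. Of 7341 genes, 1.7% passed between diabetic and control pools and 0.0681% between NTD embryos and control pools. Between NTD embryos and diabetic pools 0% passed, so 3 genes are too few to set apart from these shares.

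Each array detected 12546 to 13736 of its 32766 probes (38.3 to 41.9%), with the fewest in NTD embryo 1, with median intensities of 55.3 to 62.2. Correlations between samples of a group across probes, which are not independent replicates, were 0.981 to 0.991 among NTD embryos, 0.990 to 0.996 among diabetic pools and 0.995 to 0.997 among control pools. Of 16 tissue markers of a whole embryo, 11 had a listed probe and 9 of these were detected on all 12 arrays, among them the cardiac gene Myh6, the somite gene Meox1, the proneural gene Neurog2 and the embryonic globin gene Hbb-y, while the liver gene Alb was detected on 0. The male-specific gene Kdm5d had log2 values of 9.18, 9.05, 4.59 and 4.48 in NTD embryos 1 to 4, of 7.23 to 8.97 in diabetic pools and of 8.19, 8.28, 4.60 and 4.42 in control pools 1 to 4. Kdm5d was thus high in every diabetic pool, but high in some and low in others of the NTD embryos and of the control pools. Diabetic and control pools are therefore not balanced for this gene. The differences of the 8 probes from control were also computed without control pools 3 and 4, and 0 of the 8 passed. No such step was taken for NTD embryos 3 and 4, so the part of Kdm5d-low embryos in the differences from diabetic pools was not tested. A value in a whole embryo sums all its tissues, so fewer cells of a type and less RNA per cell cannot be told apart.

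In outline, none of the 8 probes passed limma's test between any 2 groups. An unadjusted p under 0.05 was found for 1 probe each of Aldh1a2 and Aldh1a3, above control in the diabetic pools, and for Aldh1a1, below the diabetic pools in NTD embryos. The SDs of Aldh1a1 and Aldh1a2 were larger among the 4 NTD embryos than among the pools, which was not tested. Values below are log2 normalized intensities, and a difference between groups is given on the log2 scale with its standard error (n = 4 per group). An adjusted p is Benjamini-Hochberg adjusted over 13876 probes, with a threshold of 0.05, two-sided. Gene positions are those of RefSeq on GRCm38.p6, and the place of a probe within its gene was not used here. Levels of different probes are not comparable, so each probe is compared with itself across samples.

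**Figure D1:**
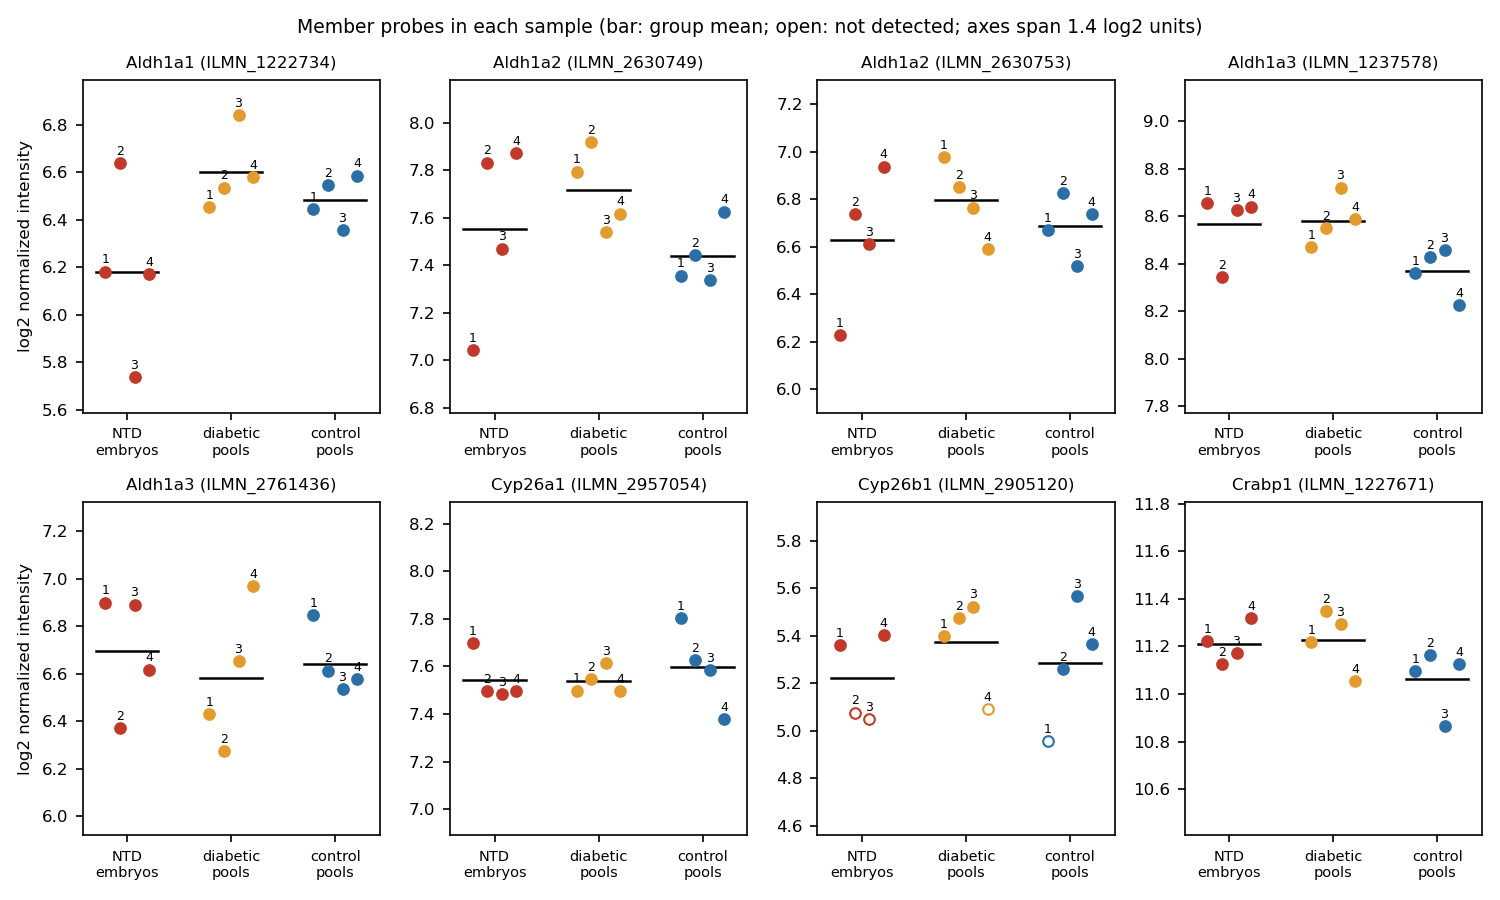
Log2 normalized intensity of the 8 probes in every sample, with points numbered by replicate, bars at the mean of each group and open points for samples in which the probe was not detected. Aldh1a1 and both probes of Aldh1a2 are widest among the NTD embryos, and the Aldh1a3 probe ILMN_1237578 is the one whose diabetic pools all lie above the control pools.

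Aldh1a2 (chr9:71215789-71296243) encodes the main retinoic acid synthesis enzyme of trunk mesoderm, expressed in somites, lateral plate and the outer layer of the heart. Its probe ILMN_2630749 had values of 7.04, 7.83, 7.47 and 7.87 in NTD embryos 1 to 4, of 7.79, 7.92, 7.54 and 7.62 in diabetic pools 1 to 4, and of 7.36, 7.44, 7.34 and 7.63 in control pools 1 to 4. NTD embryo 1 was the lowest of the 12 samples, and the 2 pool groups overlapped because control pool 4 lay above diabetic pools 3 and 4. The diabetic pools averaged 7.72 ± 0.17 and the control pools 7.44 ± 0.13 (SD, n = 4 each), a difference of 0.28 ± 0.10, or 1.21-fold with a 95% interval of 1.04 to 1.41. In limma its unadjusted p was 0.0169 and its adjusted p 0.238, so it did not pass. It passed under 0 of 20 alternatives, with adjusted p of 0.161 to 0.682 and differences of 0.19 to 0.34.

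The other Aldh1a2 probe, ILMN_2630753, had values of 6.23, 6.74, 6.61 and 6.94 in NTD embryos 1 to 4, of 6.98, 6.85, 6.76 and 6.59 in diabetic pools 1 to 4, and of 6.67, 6.82, 6.52 and 6.74 in control pools 1 to 4. Both probes put NTD embryo 1 lowest and NTD embryo 4 highest among the NTD embryos, in the same order throughout. Among diabetic pools they did not share an order: pool 4 was lowest by this probe and pool 3 by the other. The diabetic pools averaged 6.79 ± 0.16 and the control pools 6.69 ± 0.13 (SD, n = 4 each), a difference of 0.11 ± 0.10 with an interval of -0.10 to 0.32 and a limma adjusted p of 0.713.

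For NTD embryos against control pools the Aldh1a2 differences were 0.11 ± 0.17 by ILMN_2630749 and -0.06 ± 0.14 by ILMN_2630753 (limma adjusted p = 0.895 and 0.944). Both moved with NTD embryo 1: without it they were 0.28 and 0.07, with adjusted p of 0.334 and 0.833. Relative to the control mean, NTD embryo 1 had -0.40 and -0.46 by these probes, while NTD embryo 4 had 0.43 and 0.25. The array of NTD embryo 1 also detected the fewest probes, and the part of this in its Aldh1a2 values was not tested. Against diabetic pools the differences were -0.16 ± 0.17 and -0.17 ± 0.15, and without NTD embryo 1 they were 0.0078 and -0.03.

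Aldh1a1 (chr19:20492583-20643463) encodes a synthesis enzyme found in the dorsal retina, and Aldh1a7 is a close mouse paralog that its probe may also read, which was not checked. Its probe ILMN_1222734 had values of 6.18, 6.64, 5.74 and 6.17 in NTD embryos 1 to 4, of 6.45, 6.54, 6.84 and 6.58 in diabetic pools 1 to 4, and of 6.44, 6.55, 6.36 and 6.59 in control pools 1 to 4. NTD embryos 1, 3 and 4 lay below all 8 pools, and NTD embryo 2 lay above all 4 control pools, so the groups overlapped. The NTD embryos averaged 6.18 ± 0.37 and the diabetic pools 6.60 ± 0.17 (SD, n = 4 each), a difference of -0.42 ± 0.17, or 0.748-fold with a 95% interval of 0.579 to 0.966.

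That Aldh1a1 difference had an unadjusted p of 0.0294 in limma but an adjusted p of 0.997, in a comparison in which 0 of 13876 probes passed. Against the control pools, which averaged 6.48 ± 0.10, the NTD embryos differed by -0.30 ± 0.16, with an interval of -0.65 to 0.05 and a limma adjusted p of 0.574. NTD embryo 3 carried much of both values: without it the difference was -0.15 from control pools and -0.27 from diabetic pools. Between diabetic and control pools the difference was 0.12 ± 0.09 (limma adjusted p = 0.663).

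Markers of blood were low in some of the same NTD embryos as Aldh1a1. Of 14 erythroid genes, 10 had a passing probe, the globin genes among them, and Epb42, a membrane skeleton gene, was detected on 0 arrays. In NTD embryos 1 to 4 the 10 genes averaged -0.31, 0.03, -0.82 and -0.55 against the control mean, while Aldh1a1 stood at -0.30, 0.15, -0.75 and -0.31. In diabetic pools 1 to 4 the 10 genes averaged -0.0031, 0.0074, -0.19 and -0.28, and Aldh1a1 stood at -0.03, 0.05, 0.36 and 0.10. In control pools 1 to 4 they averaged -0.17, -0.02, 0.08 and 0.11, and Aldh1a1 stood at -0.04, 0.06, -0.13 and 0.10. The summed intensity of the 10 genes was 86569 to 109000 in NTD embryos, 104423 to 111973 in diabetic pools and 104872 to 108908 in control pools. The part of blood content in the Aldh1a1 values was not tested. Aldh1a1 was also the most variable of the 8 probes over the 12 arrays (SD 0.29), and the genes with the most similar profile, by root mean square difference of centred log2 values, were the Notch target Heyl (0.11), Pid1 (0.15), Ms4a6d (0.15), the secreted BMP antagonist gene Nbl1 (0.15) and the blood-cell gene Nckap1l (0.15). All 5 had their lowest value in NTD embryo 3, from -0.62 for Heyl to -0.31 for Pid1 relative to their own means. This follows from how they were chosen, by likeness to Aldh1a1, whose own lowest value was in that embryo.

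Aldh1a3 (chr7:66390892-66427477) encodes the synthesis enzyme of the ventral retina and the nasal region. Its probe ILMN_1237578 had values of 8.65, 8.34, 8.63 and 8.64 in NTD embryos 1 to 4, of 8.47, 8.55, 8.72 and 8.59 in diabetic pools 1 to 4, and of 8.36, 8.43, 8.46 and 8.23 in control pools 1 to 4. All 4 diabetic pools lay above all 4 control pools, though 8.47 and 8.46 met closely, and NTD embryo 2 lay within the control range. The diabetic pools averaged 8.58 ± 0.10 and the control pools 8.37 ± 0.10 (SD, n = 4 each), a difference of 0.21 ± 0.08, or 1.16-fold with an interval of 1.02 to 1.31. Its unadjusted p was 0.0227 and its limma adjusted p 0.268, so it did not pass, nor did it under any of 20 alternatives.

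The other passing probe of Aldh1a3, ILMN_2761436, gave another pattern. It had 6.90, 6.37, 6.89 and 6.62 in NTD embryos 1 to 4, 6.43, 6.28, 6.65 and 6.97 in diabetic pools 1 to 4, and 6.85, 6.61, 6.53 and 6.58 in control pools 1 to 4. Diabetic pools 1 and 2 lay below and diabetic pool 4 above every control pool, and the difference was -0.06 ± 0.13 (interval -0.35 to 0.23, limma adjusted p = 0.907). The probes thus differed in sign between diabetic and control pools, and the value of 0.21 is that of ILMN_1237578. Both put NTD embryos 1 and 3 above all 4 control pools and NTD embryo 2 lowest of the NTD embryos. For NTD embryos against control pools they gave 0.20 ± 0.10 and 0.05 ± 0.13 (limma adjusted p = 0.529 and 0.946).

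Cyp26a1 (chr19:37697738-37701536) encodes the breakdown enzyme of the tail bud and is itself switched on by retinoic acid, through elements that include the one printed above. Its probe ILMN_2957054 had values of 7.70, 7.49, 7.48 and 7.50 in NTD embryos 1 to 4, of 7.50, 7.55, 7.61 and 7.50 in diabetic pools 1 to 4, and of 7.80, 7.63, 7.58 and 7.38 in control pools 1 to 4. Samples of all groups were interleaved, and the control pools spanned more (0.42) than the NTD embryos (0.21) or the diabetic pools (0.12). The difference was -0.06 ± 0.09 between diabetic and control pools, where the 95% interval in fold was 0.837 to 1.10, and -0.05 ± 0.10 between NTD embryos and control pools, where it was 0.824 to 1.12 (limma adjusted p = 0.856 and 0.921). Between NTD embryos and diabetic pools it was 0.0044 ± 0.09, with an interval of 0.879 to 1.14. These intervals hold for the normalized scale and leave differences within their bounds unsettled.

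Cyp26b1 (chr6:84571414-84593908), the breakdown enzyme gene of hindbrain segments and distal limb buds, lay near background: its probe ILMN_2905120 was detected in 2 of 4 NTD embryos, 3 of 4 diabetic pools and 3 of 4 control pools. Its values were 5.36, 5.08, 5.05 and 5.40 in NTD embryos 1 to 4, 5.40, 5.48, 5.52 and 5.09 in diabetic pools 1 to 4, and 4.96, 5.26, 5.57 and 5.37 in control pools 1 to 4. The control pools, which lie between 4.96 and 5.57, spanned every other sample. Differences were 0.09 ± 0.13 between diabetic and control pools, -0.06 ± 0.14 between NTD embryos and control pools and -0.15 ± 0.13 between NTD embryos and diabetic pools (limma adjusted p = 0.858, 0.936 and 0.997), and near background such values understate a fold.

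Crabp1 (chr9:54764748-54773110) encodes a cytoplasmic protein that binds retinoic acid, known in hindbrain and neural crest cells. Its probe ILMN_1227671 had values of 11.22, 11.13, 11.17 and 11.32 in NTD embryos 1 to 4, of 11.22, 11.35, 11.29 and 11.05 in diabetic pools 1 to 4, and of 11.10, 11.16, 10.87 and 11.12 in control pools 1 to 4. Control pool 3 was the lowest sample, and the groups overlapped. The difference was 0.17 ± 0.09 between diabetic and control pools (interval -0.03 to 0.37), 0.15 ± 0.09 between NTD embryos and control pools (interval -0.05 to 0.35), and -0.02 ± 0.09 between NTD embryos and diabetic pools, with limma adjusted p of 0.485, 0.648 and 0.997. Without control pool 3 the differences from control were 0.10 and 0.08.

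**Figure D2:**
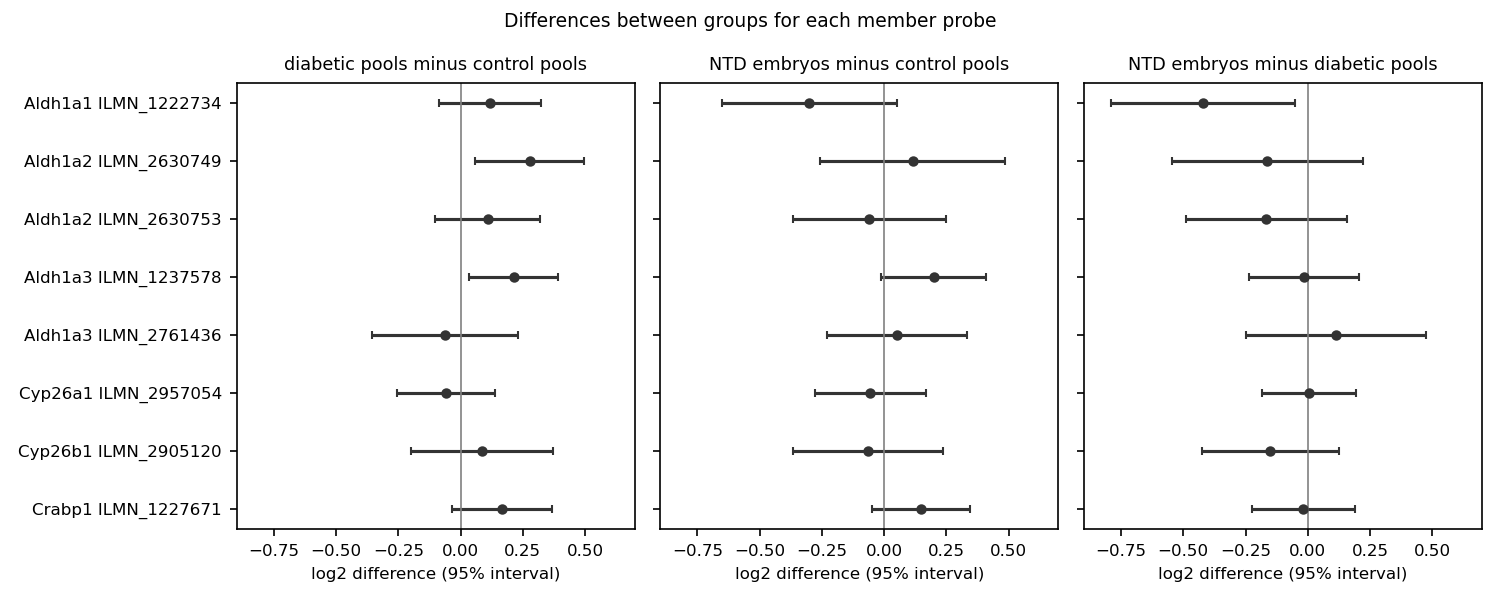
Log2 difference of each probe with its 95% interval from limma, in the 3 comparisons (4 samples per group). Intervals clear of 0 are those of Aldh1a2 ILMN_2630749 and Aldh1a3 ILMN_1237578 for diabetic minus control pools and of Aldh1a1 for NTD embryos minus diabetic pools, and 0 of the 24 differences passed after adjustment over all probes.

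Counted together, limma passed 0 of the 8 probes between diabetic and control pools, where 1.6% of all 13876 probes passed (70 higher and 152 lower in diabetic pools, or 36 and 249 when arrays were scaled to their medians). At an unadjusted p under 0.05 there were 2 of 8, the Aldh1a2 and Aldh1a3 probes, against 13% of all probes, and the groups did not overlap for 1 of 8, against 8.66%. Between NTD embryos and control pools limma passed 0 of 8, against 0.036% of all probes. At an unadjusted p under 0.05 there were again 0, against 9.94%, and non-overlapping groups were found for 0, against 5.89%. Between NTD embryos and diabetic pools 0 of 8 passed, with 0% of all probes passing; 1 of 8, Aldh1a1, had an unadjusted p under 0.05, against 2.91%, and 0 had groups without overlap, against 1.82%. The median difference of the 8 probes was 0.11 for diabetic minus control pools, -0.0016 for NTD embryos minus control pools and -0.08 for NTD embryos minus diabetic pools, beside medians over all probes of 0.0058, 0.0033 and -0.0037. The first 2 comparisons share the control pools. Over all 24 differences, the 95% intervals ran from 0.579-fold to 1.41-fold at their widest on this scale, which understates changes of dim probes.

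Among the separate embryos the values of Aldh1a1 and Aldh1a2 were the most spread of these genes. In the NTD group the SD was 0.37 for Aldh1a1, 0.39 and 0.30 for the Aldh1a2 probes, and 0.25 and 0.15 for the Aldh1a3 probes. For Cyp26b1 it was 0.19, for Cyp26a1 0.10 and for Crabp1 0.08, where the median over all passing probes was 0.17. Set among all passing probes, the Aldh1a1 and Aldh1a2 values stood at the 92.6th, 93.8th and 86.1th percentile of SD, and Cyp26a1 and Crabp1 at the 20.8th and 12.9th. Among diabetic pools Aldh1a1 and the Aldh1a2 probes had SDs of 0.17, 0.17 and 0.16, and among control pools of 0.10, 0.13 and 0.13, where the medians over all probes were 0.13 and 0.11. The SD was largest among NTD embryos for 4 of the 8 probes, as it was for 57.1% of all probes, and a pool averages over 4 embryos where an NTD sample does not. Differences in SD were not tested.

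**Figure D3:**
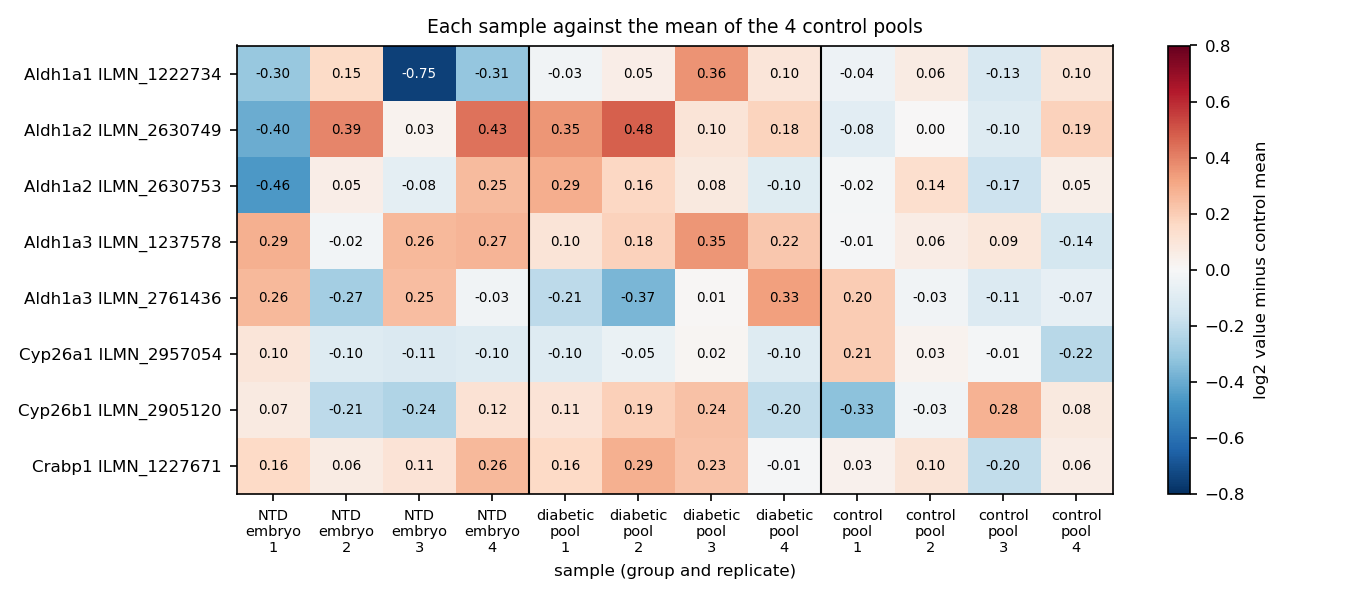
Log2 value of each probe minus the mean of the 4 control pools, for each of the 12 samples. The lowest cells are Aldh1a1 in NTD embryo 3 (-0.75) and Aldh1a2 in NTD embryo 1 (-0.46 and -0.40), and the highest is Aldh1a2 ILMN_2630749 in diabetic pool 2 (0.48).

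**Figure D4:**
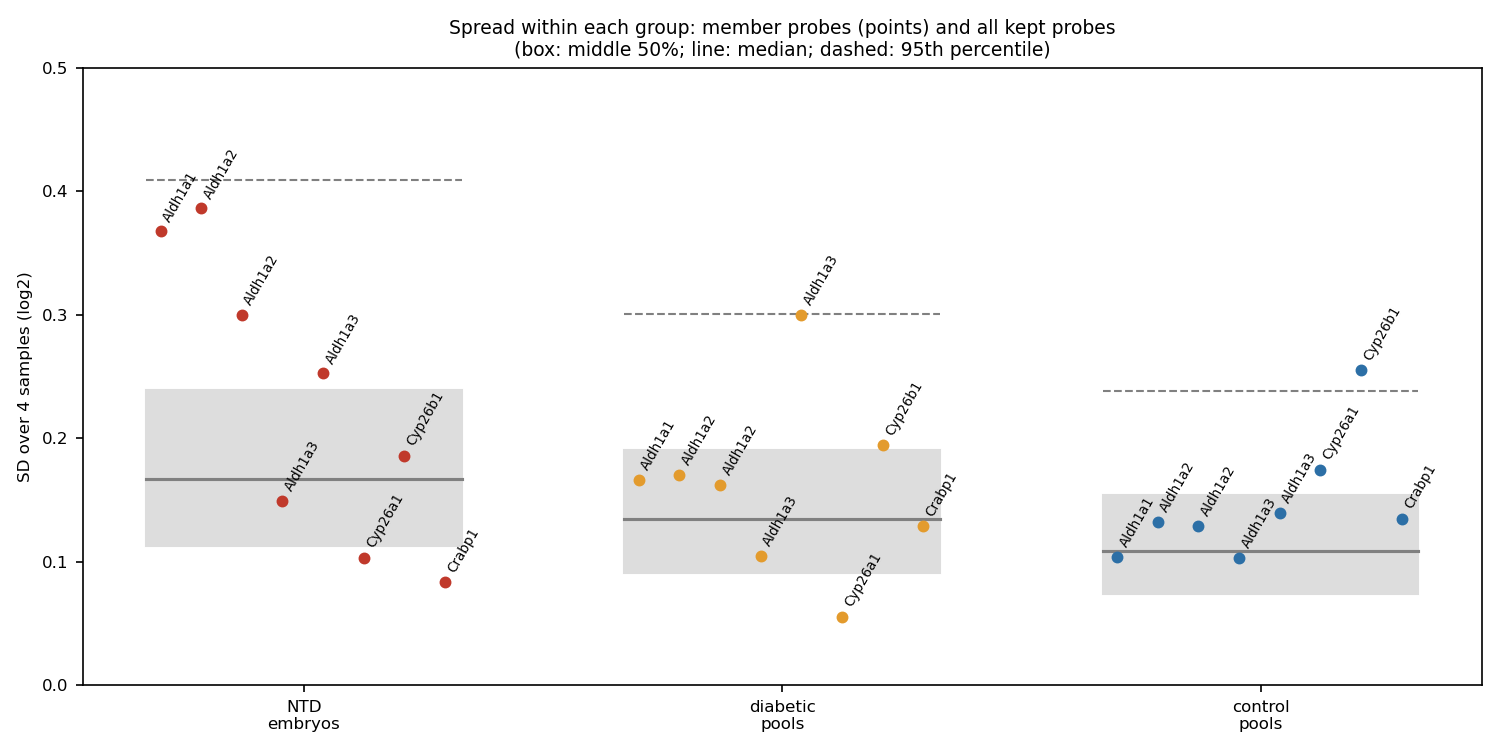
Standard deviation of each probe over the 4 samples of a group (points), against all 13876 passing probes (grey box for the middle 50%, line at the median, dashed line at the 95th percentile). In NTD embryos Aldh1a1, both Aldh1a2 probes and Aldh1a3 ILMN_2761436 lie above the grey box and Cyp26a1 and Crabp1 below it, and the point past a dashed line is Cyp26b1 in the control pools.

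No single NTD embryo was low or high for all genes. NTD embryo 1 had the lowest Aldh1a2 with the highest Cyp26a1 and Aldh1a3 of its group. NTD embryo 3 had the lowest Aldh1a1 with Aldh1a2 ILMN_2630749 near the control mean (0.03). NTD embryo 2 had the highest Aldh1a1 of its group and the lowest Aldh1a3 by both probes, and NTD embryo 4 the highest Aldh1a2, Cyp26b1 and Crabp1. Averaged over the 8 probes, NTD embryos 1 to 4 stood at -0.04, 0.0065, -0.07 and 0.11 from the control mean, and the diabetic pools at 0.05 to 0.17, against -0.04 to 0.04 in the control pools. The control pools centre on 0 by construction, and Aldh1a2 and Aldh1a3 enter with 2 probes each. Differences in these averages were not tested.

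Other genes of the pathway, each by its brightest probe, were grouped by role. For the supply of retinaldehyde, 12 of 25 genes had a listed probe, 9 of those 12 were detected on 0 arrays, Dhrs3 among them, and 3 passed the filter: the alcohol dehydrogenase genes Adh1 and Adh5 and the dehydrogenase gene Dhrs4. In limma 0 of these 3 passed in any comparison, beside 1.7%, 0.0681% and 0% of 7341 genes in the order of comparisons above. At an unadjusted p under 0.05 in limma, 1 was lower in diabetic than in control pools, against 13.5% of all genes. In NTD embryos against control pools 1 was higher and 1 lower, against 9.7%. Between NTD embryos and diabetic pools there were 0, against 2.92%. Dhrs4 had differences of -0.17 ± 0.07 for diabetic and -0.21 ± 0.09 for NTD samples against control pools (limma adjusted p = 0.345 and 0.444). Adh1 had 0.19 ± 0.09 for NTD embryos against control pools (limma adjusted p = 0.502). Among 9 measured partner receptors, carriers and cofactors, for which the annotation lists no probe of Rxra, Rxrb or Rxrg, 0 passed in each comparison. Medians of this list were 0.02, -0.03 and -0.10 in the same order, beside 0.01, 0.0062 and -0.0051 over all genes. Crabp2, which carries retinoic acid to the nucleus, had -0.05 ± 0.08 between diabetic and control pools, and the coactivator gene Ncoa3 had the list's smallest unadjusted p, 0.0739, with -0.25 ± 0.12 between NTD embryos and diabetic pools (limma adjusted p = 0.997), near background, as it was detected in 1 of 4 NTD embryos and 4 of 4 diabetic pools.

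Of 30 genes known to respond to retinoic acid, 16 were measured. Beside 1.7% of 7341 genes that passed between diabetic and control pools, 1 of the 16 passed and was higher in diabetic pools. This was Hoxb4, a patterning gene of the hindbrain and neck, which averaged 9.31 ± 0.08 in diabetic pools and 8.95 ± 0.06 in control pools (SD, n = 4 each), a difference of 0.36 ± 0.07 with a limma adjusted p of 0.0278. Its call ended under 11 of 20 alternatives, with adjusted p of 0.00796 to 0.305 over all 20. The other 15 genes did not pass. Among them Hoxb1, a gene of a single hindbrain segment, had 0.40 ± 0.10, Lefty1, an inhibitor of Nodal signalling, 0.40 ± 0.10 near background, and Hoxa4 0.39 ± 0.12 (limma adjusted p = 0.0890, 0.0789 and 0.143).

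Of those 16 genes, 15 had a difference above 0 between diabetic and control pools and the median was 0.13, beside 0.01 over all 7341 genes. At an unadjusted p under 0.05 there were 6 of 16, all above 0, against 13.5% of all genes. Lefty1, 1 of the 6, was detected in 3 of 4 diabetic pools, 1 of 4 NTD embryos and 0 of 4 control pools. It thus passed the detection filter mainly through the diabetic pools, so its differences involving those pools count as no support here. Genes of the Hox clusters share regulation and neighbours, and are not independent of each other. The list was chosen with earlier results of these data known, and the share of all genes above 0 was not counted. A shared response of the list was thus not tested in any comparison. Between NTD embryos and control pools 0 of 16 passed in limma and 2 had an unadjusted p under 0.05, against 9.7% of all genes: Hoxb1 with 0.50 ± 0.14 and Hoxb4 with 0.31 ± 0.12 (limma adjusted p = 0.275 and 0.421). There 12 of 16 lay above 0, with a median of 0.08. Between NTD embryos and diabetic pools 0 of 16 passed and 2 had an unadjusted p under 0.05, Foxc1 and Lefty1, each with -0.30, against 2.92% of all genes, and the median was -0.08. The NTD embryos spread over more than the pools: against the control mean the 16 genes averaged 0.0091 to 0.28 in NTD embryos and 0.15 to 0.19 in diabetic pools, against -0.03 to 0.03 in control pools.

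**Figure D5:**
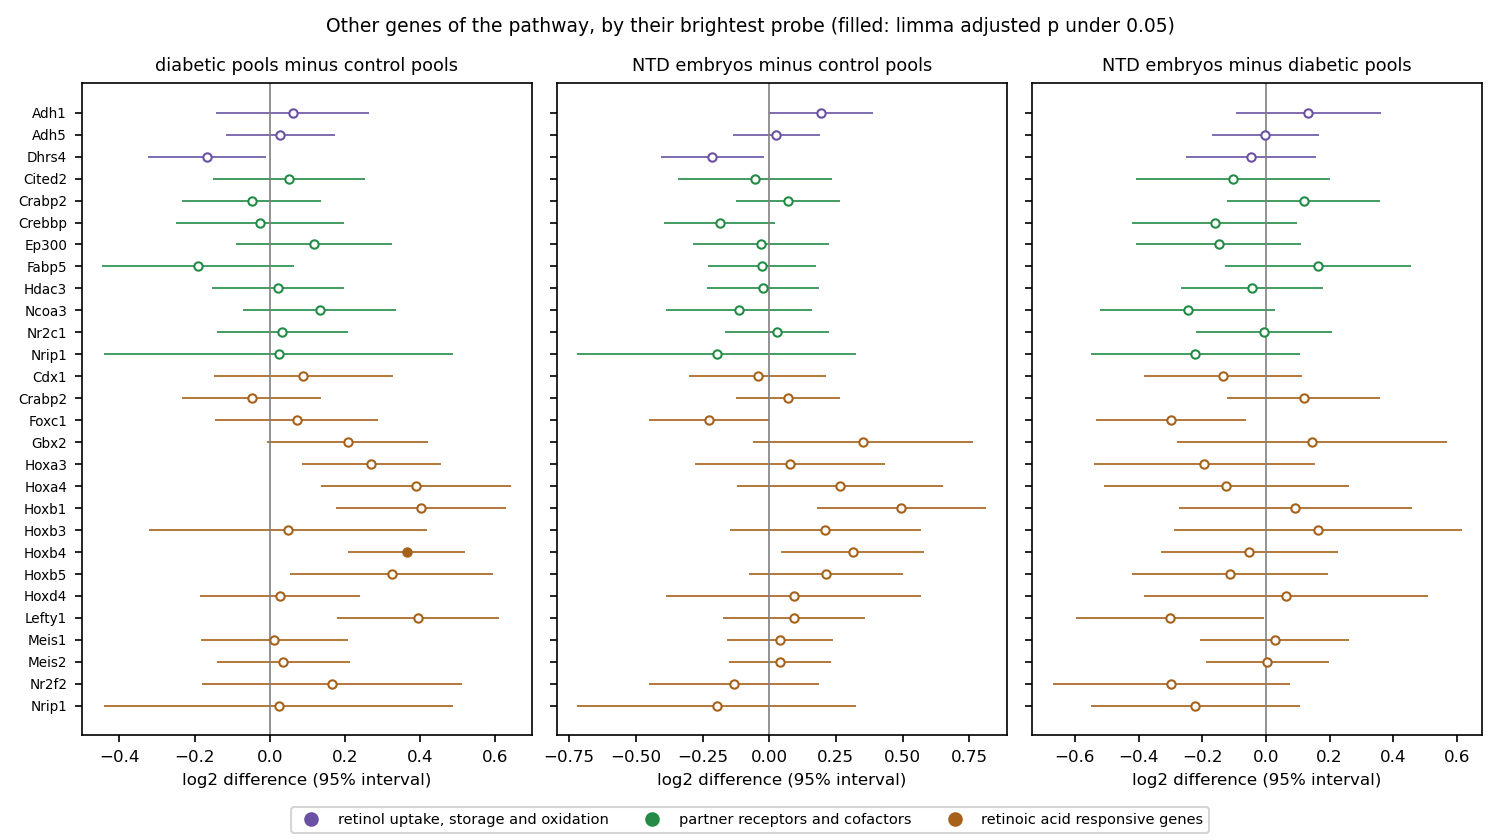
Log2 difference of each measured gene of 3 lists (supply of retinaldehyde, partner receptors and cofactors, genes that respond to retinoic acid), by its brightest probe, in the 3 comparisons. Filled symbols mark genes that passed limma's adjusted threshold, and Hoxb4 in diabetic against control pools (0.36) is the one.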

How the data were processed

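The authors deposited a table of non-normalized Illumina intensities for 32766 probes in 12 samples. Per the file headers it also gives a detection p-value, a bead standard error and a bead number for each probe. The submitters' processing notes name GenomeStudio, with no version. A second deposited table of intensities had its values in the same order and reaches below 0; its normalization is not given in the sources used here, and it served as an alternative only. Probes were named through the platform annotation.

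Intensities were background-corrected, quantile-scaled and put on a log2 scale with neqc (offset 16) of limma 3.58.1 in R 4.3.3. The 13876 probes past the detection filter (p under 0.05 on 4 arrays or more) were tested with limma's moderated test on the 8 arrays of each comparison, and adjusted by Benjamini-Hochberg. The fit was tested on simulated data. Genes of other lists were taken by their brightest probe. All passing probes of the 10 genes were named. In each list, genes past the adjusted threshold were named, then up to 4 with the smallest unadjusted p. For the gene with the largest SD over 12 arrays, the 5 most similar profiles were named. The genes and lists were chosen with earlier results of these data known. Each value rests on 20 to 69 beads, and 4 samples per group limit the precision. The labels call the samples of a group replicates, with the embryos of a pool from 4 pregnancies. A p-value sets the difference between groups against the spread of these samples, pooled over the 2 groups compared. That holds also where single embryos were set against pools. In limma that spread is moderated toward the spread of all probes tested, and the standard errors and 95% intervals of differences are moderated too. No 2 arrays held identical values. Alternatives covered background, scaling, filter, weights, samples, the deposited value table and a replicate block.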

Additional observations from a re-analysis of the deposited data

Results flagged for a closer look

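Of 24 groups of 4 values (8 probes in 3 groups), 2 held a sample far from the others of its group, where chance gives about 1 in 20. Aldh1a3 ILMN_1237578 was 8.34 in NTD embryo 2 against 8.63 to 8.65 in the other NTD embryos, a gap of 0.911 of the group's range above Dixon's 95% critical value for 4 samples. Cyp26a1 was 7.70 in NTD embryo 1 against 7.48 to 7.50 in the others, a gap of 0.942.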

How the results depend on the processing

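None of the 8 probes passed under 20, 20 and 19 alternatives of the 3 comparisons. Of 463 differences over alternatives, 438 kept their sign and 25 did not, 18 of these on leaving out 1 sample; the cause was not tested. For NTD embryos minus control pools, median scaling gave -0.032 for Aldh1a2 ILMN_2630749 and -0.11 for Aldh1a3 ILMN_2761436, array weights gave -0.0066 for that Aldh1a3 probe, and without control pools 3 and 4 it had -0.035 and Cyp26b1 0.11. For NTD embryos minus diabetic pools, Cyp26a1 had -0.068 with median scaling and -0.012 with array weights. Median scaling shifted the median of all probes to -0.06, -0.11 and -0.05 in the 3 comparisons.

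Leaving out 1 sample at a time gave, for diabetic minus control pools, -0.19 to 0.041 for Aldh1a3 ILMN_2761436, -0.025 to 0.18 for Cyp26b1 and -0.13 to 0.0090 for Cyp26a1. For NTD embryos minus control pools it gave -0.16 to 0.075 for Aldh1a2 ILMN_2630753, -0.017 to 0.16 for Aldh1a3 ILMN_2761436, -0.18 to 0.029 for Cyp26b1 and -0.13 to 0.013 for Cyp26a1. For NTD embryos minus diabetic pools it gave -0.077 to 0.022 for Crabp1, -0.052 to 0.059 for Aldh1a3 ILMN_1237578, -0.27 to 0.0078 for Aldh1a2 ILMN_2630749 and -0.047 to 0.030 for Cyp26a1.

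Over all probes, 222 passed between diabetic and control pools, and 40 (all 12 arrays in 1 fit) to 323 (array weights) otherwise, with 132 in the authors' value table, 52 without control pools 3 and 4, and 100 (without control pool 2) to 281 (without diabetic pool 4) on leaving out 1 sample. Between NTD embryos and control pools 5 passed, and 0 (without control pools 3 and 4) to 54 (array weights) otherwise, with 62 without NTD embryo 1 and 61 without NTD embryo 4. The replicate block gave 96 and 1, and 0 of the 8 probes passed with it. Deviations from group means of same-numbered samples correlated at -0.25 to 0.07 between diabetic and control pools, -0.19 to 0.28 between NTD embryos and diabetic pools, and 0.0028 to 0.26 between NTD embryos and control pools, where different numbers gave -0.37 to 0.25. As not every pair was over 0.1, the numbers were not taken as pairs. A slide block was not run, as the column headers name no slide.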

Other observations

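Lists of genes by region of the embryo were measured beside the retinoic acid genes, as values. In limma, of 6 genes of somites, lateral plate and epicardium, Meox1, a somite transcription factor, rose in diabetic against control pools by 0.37 ± 0.08 (adjusted p = 0.0418), a call that ended under 13 of 20 alternatives. The 10 whole-embryo markers include Meox1 by the same probe, so its call there is not a separate result. Among them Neurog2, a transcription factor of neuron formation, fell in diabetic against control pools by 0.44 on the log2 scale (SE 0.08, limma adjusted p = 0.0228, ended under 7 of 20 alternatives). Over all 7341 genes, 1.7% passed in that comparison. In these 2 lists and in those of the tail bud (6 measured), hindbrain (7), eye and face (2), limb bud (9), neural crest (6), extraembryonic tissue (5) and erythroid cells (10), no other gene passed in any comparison.

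Of the 7 measured hindbrain genes, 4 (Hoxb1, Hoxa3, Hoxb3 and Gbx2) are also in the list of genes that respond to retinoic acid, so their values are not separate. Medians of the 7 were 0.15 for diabetic minus control pools and 0.14 for NTD embryos minus control pools, comparisons that share the control pools, beside 0.01 and 0.0062 over all genes. The 10 erythroid genes had medians of -0.08 and -0.37 in the same order.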
